A study of Mus musculus with 17 samples.

Results

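The chemokine ligand genes Xcl1, Ccl3, Ccl4, Ccl5, Cxcl9 and Cxcl10 were followed in mouse CD8 T cells of 4 states. Members were all probes of the array whose annotated gene symbol was one of these 6 genes, which gave 8 probes of 45281 on the array: 1 each for Xcl1, Ccl3, Ccl5 and Cxcl9 and 2 each for Ccl4 and Cxcl10. RNA of OT-I cells, which carry a transgenic T-cell receptor for an ovalbumin peptide, was hybridised to 17 Illumina arrays with 1 array per sample. The mice had a C57Bl/6 background and were 2 to 6 months old. The LSEC-primed cells, labelled Tpm (n = 4), came from coculture with liver sinusoidal endothelial cells, the cells that line the capillaries of the liver. Memory cells (n = 3) were taken from the spleen 3 months after infection with ovalbumin-carrying Listeria monocytogenes. Effector cells (Teff, n = 5) had been activated by dendritic cells, and naive cells (n = 5) came from the spleen without activation. Teff 8 is labelled with spleen as its source, unlike its 4 group mates, which are labelled as coculture with dendritic cells. Arrays are called by group and by the sample number of the labels. The labels do not tell whether the samples of a group are from different animals or cultures. The p-values therefore describe only the spread among these samples, which may be technical.

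Chemokines are small secreted proteins that guide leukocytes through G-protein-coupled receptors. Activated CD8 T cells and NK cells are known sources of Xcl1, the ligand of Xcr1 on cross-presenting dendritic cells, and of Ccl3, Ccl4 and Ccl5, which attract T cells and myeloid cells. Cxcl9 and Cxcl10 bind Cxcr3 on activated T cells, are induced by interferon-gamma, and are known mainly as products of myeloid, endothelial and stromal cells.

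The upstream sequences of Cxcl9, Cxcl10 and Xcl1 are shown because these 3 genes had their highest level in Tpm. They are the 250 bases before the annotated gene start, 5′ to 3′ on the gene's own strand, from RefSeq (GRCm38.p6), where 4 of the 6 genes matched. Ccl4 and Ccl5 had no entry. Cxcl9 lies at chr5:92328080-92328329, Cxcl10 at chr5:92348890-92349139 and Xcl1 at chr1:164935523-164935772, all on the minus strand. Capitals mark matches, on either strand, to an interferon-stimulated response element (GAAA, any 2 bases, GAAA), to kB-type motifs of 9 letters (GGG, any 2 bases, TTCC) and 10 letters (GGG, any 3 bases, TTCC), to a T-box half-site (GGTGTGA) and to an AP-1 motif (TGANTCA).
Cxcl9: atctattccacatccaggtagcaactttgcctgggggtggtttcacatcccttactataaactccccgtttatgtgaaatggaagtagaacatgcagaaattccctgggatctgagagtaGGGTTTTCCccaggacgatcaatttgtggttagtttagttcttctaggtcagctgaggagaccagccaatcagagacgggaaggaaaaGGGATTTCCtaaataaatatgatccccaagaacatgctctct
Cxcl10: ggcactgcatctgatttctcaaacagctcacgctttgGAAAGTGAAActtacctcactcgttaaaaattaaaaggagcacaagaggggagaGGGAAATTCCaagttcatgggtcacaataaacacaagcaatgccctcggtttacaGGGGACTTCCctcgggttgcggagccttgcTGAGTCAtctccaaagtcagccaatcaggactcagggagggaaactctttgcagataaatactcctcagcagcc
Xcl1: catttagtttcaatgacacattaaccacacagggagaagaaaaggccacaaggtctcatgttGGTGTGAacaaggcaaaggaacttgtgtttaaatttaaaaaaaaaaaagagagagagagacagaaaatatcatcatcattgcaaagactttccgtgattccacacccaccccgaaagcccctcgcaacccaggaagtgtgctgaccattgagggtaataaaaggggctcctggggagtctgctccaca
Cxcl9 held 2 matches to the 9-letter kB-type motif. Cxcl10 held the interferon-stimulated response element, an AP-1 motif, 1 match to the 9-letter kB-type motif and 2 to the 10-letter one. In Cxcl10 the 9-letter match lies inside 1 of the 10-letter matches. Xcl1 held only the T-box half-site, and the 250 bases before Ccl3 held none of the 5 motifs. Of the 32851 promoters in the table, 2.98% held the response element, 4.98% the 9-letter and 4.65% the 10-letter kB-type motif, 3.33% the T-box half-site and 6.75% the AP-1 motif. A match is a run of letters and not a shown binding site.

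All values below are levels in log2 of an intensity that was corrected for background, raised by 16 and quantile-normalised, a scale on which changes of dim probes come out too small. Background was taken from the mode of the signals of each array, and a signal more than 2.33 SD above that mode was read as above background. All 8 probes were above background on at least 3 of 17 arrays and were among the 19103 probes tested with limma. To be called, a probe needed a 2-fold difference, which is 1 on this scale, and a Benjamini-Hochberg adjusted p below 0.05. Cxcl10 passed this filter on 5 and 6 arrays, 4 of them Tpm arrays for each probe, so a difference between Tpm and the rest was a condition of its being tested. T-cell receptor complex genes were high in every group, with Cd3e, a chain of CD3, at 13.31 ± 0.17 in Tpm, 13.39 ± 0.30 in memory, 12.66 ± 0.15 in Teff and 13.03 ± 0.17 in naive cells (SD, n = 4, 3, 5 and 5). Cd8b1 was above background on all 17 arrays. Neither of the 2 Cd8a probes was above background on any Teff or naive array, so these probes do not show the CD8 alpha chain. Memory 3 and memory 5 were dim, with mean signals of 140 and 96.7 against 227 to 471 on the other arrays. The lowest level read as above background was 6.45 on memory 5, against 4.69 to 5.06 elsewhere. Uncorrected signals of memory 5 lay within the naive range for Xcl1 (108), Ccl3 (105) and Ccl4 (581 and 126 on probes 1 and 2), and above it for Ccl5 (3313). Its high levels of Xcl1, Ccl3 and Ccl4 therefore rest on the normalisation.

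**Figure D1:**
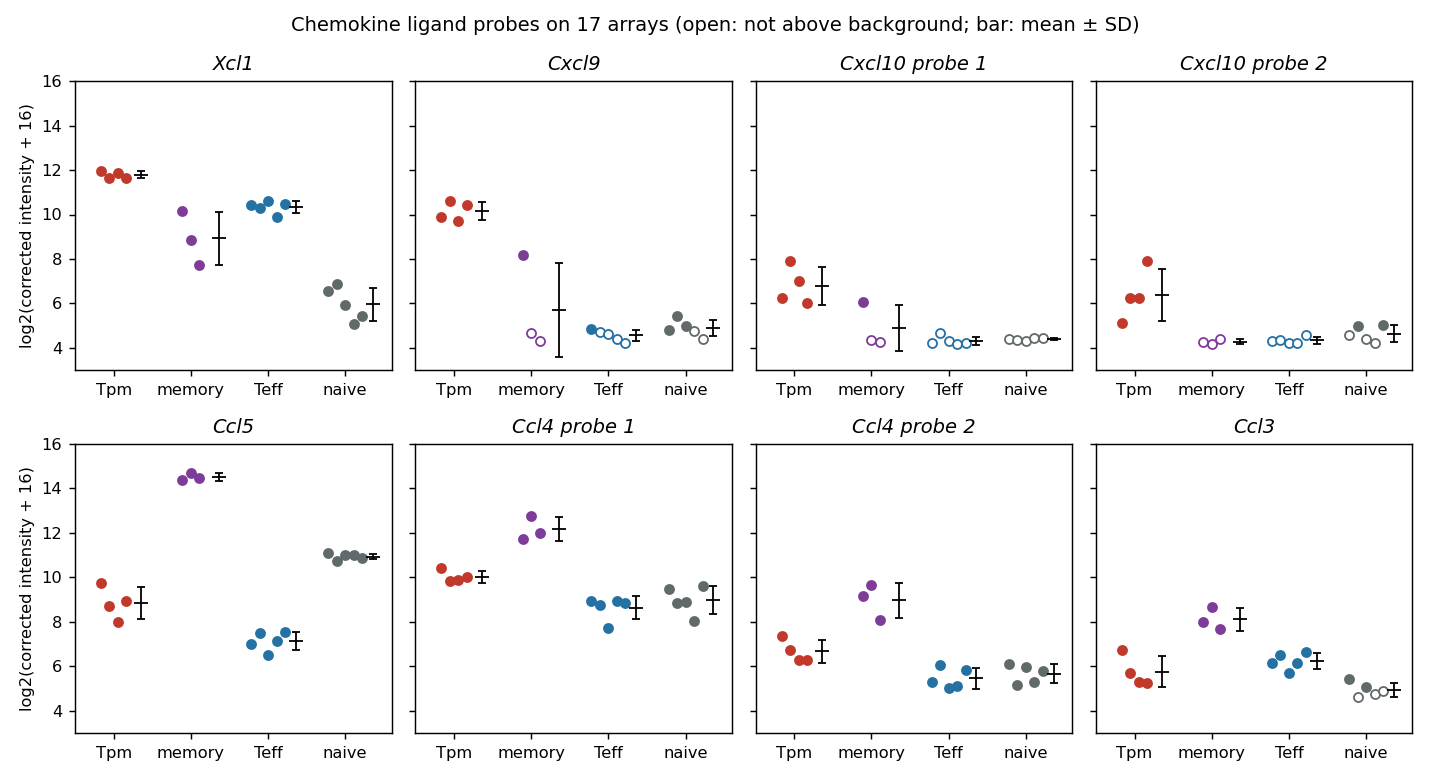
Level of each of the 8 probes on each array, as log2 of the corrected intensity plus 16, by group. Points are arrays, open points are not above background, and the bar beside each group is the mean ± SD. Xcl1, Cxcl9 and Cxcl10 are highest in Tpm, and Ccl5, Ccl4 and Ccl3 are highest in memory cells.

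Counted by comparison, 6 of the 8 probes were higher in Tpm than in naive cells and 1 was lower, where 6.09% of all tested probes were higher, 5.53% lower and 11.6% called in either direction. Set against Teff, 7 were higher in Tpm and 0 lower (6.40% and 6.99% of all, 13.4% in either direction). Set against memory cells, 4 were higher in Tpm and 4 lower (7.95% and 5.41% of all, 13.4% in either direction). In memory cells 5 were higher than in naive cells and 0 lower (4.84% and 7.38% of all, 12.2% in either direction), and 4 were higher than in Teff and 1 lower (10.5% and 14.0% of all, 24.5% in either direction). Between Teff and naive cells 2 were higher in Teff and 1 lower (11.6% and 11.4% of all, 23.0% in either direction). The comparisons share arrays, so their counts are not independent. Both Cxcl10 probes are among those counted as higher in Tpm in every comparison with Tpm. They were tested through the Tpm arrays, so for them the share over all probes is no measure of these counts or of the medians. The median difference over the 8 probes was 1.39 for Tpm against naive cells, 1.57 for Tpm against Teff, -0.11 for Tpm against memory cells and 3.06 for memory against naive cells, beside medians of -0.003, 0.01, 0.10 and -0.09 over all tested probes.

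Xcl1 was higher in all 3 antigen-experienced states than in naive cells and was highest after LSEC priming. It stood at 11.87, 11.64, 11.96 and 11.65 on Tpm 4, 7, 14 and 15, and at 10.16, 8.87 and 7.75 on memory 3, 5 and 9. On Teff 6, 8, 10, 16 and 17 it stood at 9.88, 10.47, 10.45, 10.27 and 10.62, and on naive 1, 2, 11, 12 and 13 at 6.55, 5.41, 6.86, 5.93 and 5.06. The 4 Tpm arrays lay close together and above every other array, while memory arrays were widely spread and overlapped Teff. The order of means was Tpm (11.78 ± 0.16, n = 4), Teff (10.34 ± 0.28, n = 5), memory (8.93 ± 1.21, n = 3) and naive (5.97 ± 0.75, n = 5; all SD).

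Each step in that order passed the test. Tpm exceeded Teff by 1.44 (SE 0.40, limma adjusted p = 0.0123), memory cells by 2.85 (SE 0.45, adjusted p = 0.000228) and naive cells by 5.81, a 56.3-fold difference. Teff exceeded naive cells by 4.37 (SE 0.38, adjusted p = 5.31e-08) and memory cells did so by 2.96 (SE 0.43, adjusted p = 0.0001). Xcl1 was lower in memory cells than in Teff by -1.41 (SE 0.43, adjusted p = 0.0155), a call that was lost without memory 9 (-0.82, adjusted p = 0.132) and with array weights (-1.19, adjusted p = 0.0745). With each array scaled to its median, 2 of these calls were lost, Tpm against Teff (1.30, adjusted p = 0.105) and memory against naive cells (1.38, adjusted p = 0.0564).

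Cxcl9, an interferon-gamma-induced ligand of Cxcr3, was at a high level in Tpm and near background elsewhere. It stood at 9.70, 10.41, 9.90 and 10.59 on Tpm 4, 7, 14 and 15, and at 8.16, 4.67 and 4.33 on memory 3, 5 and 9. Teff 6, 8, 10, 16 and 17 had 4.40, 4.23, 4.83, 4.74 and 4.62, and naive 1, 2, 11, 12 and 13 had 4.79, 4.42, 5.42, 5.00 and 4.77. It was above background on all 4 Tpm arrays, on memory 3 alone of the memory arrays, on Teff 10 alone of the Teff arrays and on 3 naive arrays. No other array came near the lowest Tpm array except memory 3, which lay between Tpm and the rest.

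Cxcl9 was higher in Tpm than in naive cells by 5.27 (SE 0.53, adjusted p = 1.52e-06), than in Teff by 5.59 (SE 0.53, adjusted p = 5.84e-07) and than in memory cells by 4.43 (SE 0.60, adjusted p = 5.25e-05). Memory cells against naive cells (0.84, 95% interval -0.38 to 2.05) and against Teff (1.15, -0.06 to 2.37), and Teff against naive cells (-0.32, -1.37 to 0.74), did not pass. Both memory differences rest on memory 3: without it they were -0.38 and -0.07. Without memory 5 or memory 9 the difference from Teff passed (1.68 and 1.85, adjusted p = 0.0447 and 0.0192), as it did with array weights over all arrays (1.82, adjusted p = 0.0191).

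Cxcl10, the other Cxcr3 ligand followed here and the direct neighbour of Cxcl9 in the genome, was also highest in Tpm, at low signal. Probe 1 stood at 7.00, 6.04, 6.23 and 7.91 on Tpm 4, 7, 14 and 15 and at 6.08 on memory 3, and it was not above background on any other array. Probe 2 stood at 6.25, 7.91, 5.12 and 6.24 on the same 4 Tpm arrays, and outside Tpm it was above background on naive 2 (5.05) and naive 11 (4.99) only. The probes placed the Tpm arrays in different orders: Tpm 15 was highest on probe 1 and Tpm 7 on probe 2. Both probes passed the filter only through the Tpm arrays, so their adjusted p-values for Tpm are given as a description. Probe 1 was at least 3.89-fold higher in Tpm than in naive cells (means 6.80 and 4.40, adjusted p = 9.94e-05) and at least 4.04-fold higher than in Teff (mean 4.31, adjusted p = 5.63e-05), where a level not above background was replaced by the lowest one that was. Probe 2 was at least 3.03-fold higher in Tpm than in Teff (means 6.38 and 4.34, adjusted p = 0.00042) and at least 1.91-fold higher than in memory cells (mean 4.28, adjusted p = 0.00151). Against naive cells probe 2 was higher in Tpm by 1.73 (SE 0.36, adjusted p = 0.00206), and against memory cells probe 1 was higher in Tpm by 1.90 (SE 0.41, adjusted p = 0.00286). For that last comparison the ranges overlapped through memory 3. In a fit of Tpm and memory arrays alone, neither Cxcl10 probe passed (adjusted p = 0.0949 and 0.0653), and without background correction or in the authors' processed table both fell short of 2-fold (0.86 and 0.91). Under the same 2 settings probe 2 also fell short against naive cells (0.76) and against Teff (0.88), and without memory 3 and memory 5 it did not pass against memory cells (adjusted p = 0.0585).

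For each ligand the 3 genes with the highest Pearson correlation over the 17 arrays were named, as a description of arrays that fall into groups. For Cxcl9 these were the matrix proteoglycan gene Bgn (r = 0.992), the basement membrane collagen gene Col4a1 (0.987) and Angpt2, which encodes an endothelial ligand of the Tie2 receptor (0.986). For Cxcl10 probe 1 they were the matrix protein gene Sparc (0.973), Plvap, which encodes an endothelial fenestral diaphragm protein (0.963), and the complement inhibitor gene Serping1 (0.963). On Tpm 4, 7, 14 and 15 Bgn stood at 9.24, 9.44, 8.79 and 9.85, and on memory 3 at 7.35. Angpt2 stood at 10.31, 10.61, 9.04 and 10.41 on these Tpm arrays and at 7.22 on memory 3. These genes were picked for their likeness to Cxcl9 over the same arrays, memory 3 included.

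Of 22 probes of stromal and stellate cell markers, 11 to 13 were above background on each Tpm array, 1 to 8 on memory arrays, 0 to 2 on Teff arrays and 0 to 1 on naive arrays. Their summed intensity lay from 2037 to 3643 in Tpm, 113 to 663 in memory cells, 101 to 148 in Teff and 82.6 to 119 in naive cells, with 663 on memory 3. Lum and Pdgfrb were not above background on any Tpm array. Of 41 probes of liver sinusoidal endothelial markers, 18 to 24 were above background on each Tpm array, 7 to 13 on memory arrays, 7 to 9 on Teff arrays and 5 to 9 on naive arrays. Their summed intensity lay from 5127 to 8384 in Tpm, 3056 to 3961 in memory cells, 1311 to 1806 in Teff and 577 to 1050 in naive cells. On memory 3 it was 3579, below that of memory 5 (3961), on which Cxcl9 was not above background. Angpt2 and Plvap, both on this list, ranked these arrays the other way, at 7.22 and 7.12 on memory 3. On memory 5 they stood at 4.41 and 4.35 and were not above background. Both had been picked for their likeness to Cxcl9 or Cxcl10 over the same arrays. Of these endothelial probes 13 were above background on memory 3 and 7 on memory 5, where 29.9% and 19.7% of all probes were. Flt1, Flt4 and Kdr, receptors of vascular endothelial growth factors, were not above background on any Tpm array. The part of such cells in the Cxcl9 and Cxcl10 levels was not tested. In RNA of a mixed sample, fewer cells of a type and less RNA per cell cannot be told apart.

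**Figure D2:**
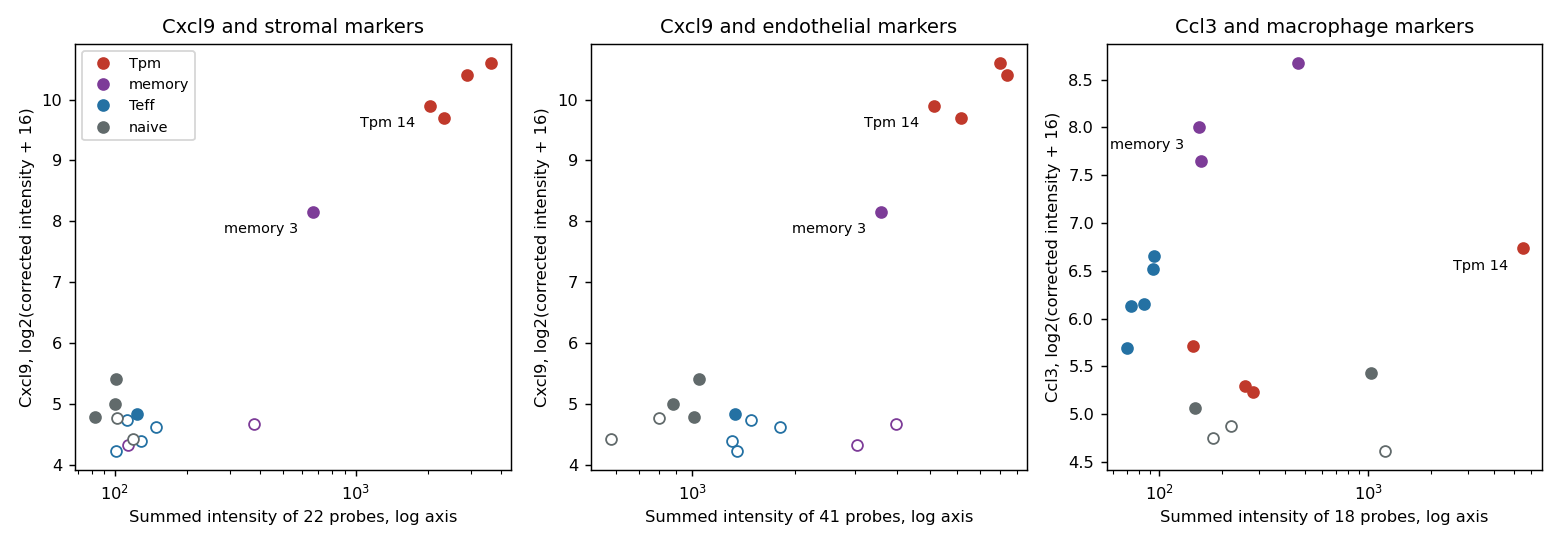
Level of Cxcl9 or Ccl3 on each array (vertical, log2 of the corrected intensity plus 16) against the summed intensity of stromal, endothelial or macrophage markers on the same array (horizontal, log axis). Cxcl9 is high on the 4 Tpm arrays and on memory 3, the arrays with a stromal sum of at least 663. The macrophage sum is highest on Tpm 14, the Tpm array with the highest Ccl3. Open points are not above background.

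The gene of interferon-gamma, Ifng, was high in memory cells and near background in Tpm, the group with the most Cxcl9. The brighter of 2 Ifng probes averaged 4.79 ± 0.64 in Tpm, 10.33 ± 0.60 in memory cells, 7.64 ± 0.25 in Teff and 5.46 ± 0.55 in naive cells (SD, n = 4, 3, 5 and 5). It was above background on 2 of 4 Tpm arrays and on every array of the other groups. Ifng was lower in Tpm than in memory cells by -5.54 and than in Teff by -2.85 on this probe, and the difference from naive cells did not pass (-0.67, adjusted p = 0.152). Among genes that interferon-gamma induces, 10 of 17 tested probes rose in Tpm relative to naive cells and 0 fell (6.09% and 5.53% of all tested probes). The median difference of the 17 was 1.45, beside -0.003 over all tested probes. Those that rose included the serine protease inhibitor gene Serpina3f (4.85), the GTPase genes Igtp (2.19) and Irgm1 (1.83 by 1 of 3 probes), and Ubd, a ubiquitin-like modifier, at least 29.5-fold. Ubd was above background on 1 memory array and on no Teff or naive array, so it was tested through the Tpm arrays. Ciita, also on this list, was not above background on any array outside Tpm. For probes tested in this way the share over all probes is no measure of the count or of the median. Irf1, a transcription factor that interferon-gamma induces, averaged 12.76 in Tpm, 12.36 in memory cells, 11.75 in Teff and 11.99 in naive cells with its brightest probe. Its 5 probes gave different orders: on the second brightest Tpm and memory cells stood at 11.13 and 11.11, and on 2 dimmer ones at 6.86 and 7.86 and at 6.86 and 7.91. No Irf1 probe was called for Tpm against memory or naive cells.

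Cxcr3, which encodes the receptor of Cxcl9 and Cxcl10, was high in Tpm and memory cells. It averaged 9.58 ± 0.31 in Tpm, 10.39 ± 0.63 in memory cells, 6.59 ± 0.49 in Teff and 6.52 ± 0.23 in naive cells. Tpm exceeded naive cells by 3.05 and Teff by 2.99, while the difference between Tpm and memory cells did not pass (-0.81, adjusted p = 0.0697). Xcr1, the receptor of Xcl1, was not above background on any of the 17 arrays.

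**Figure D3:**
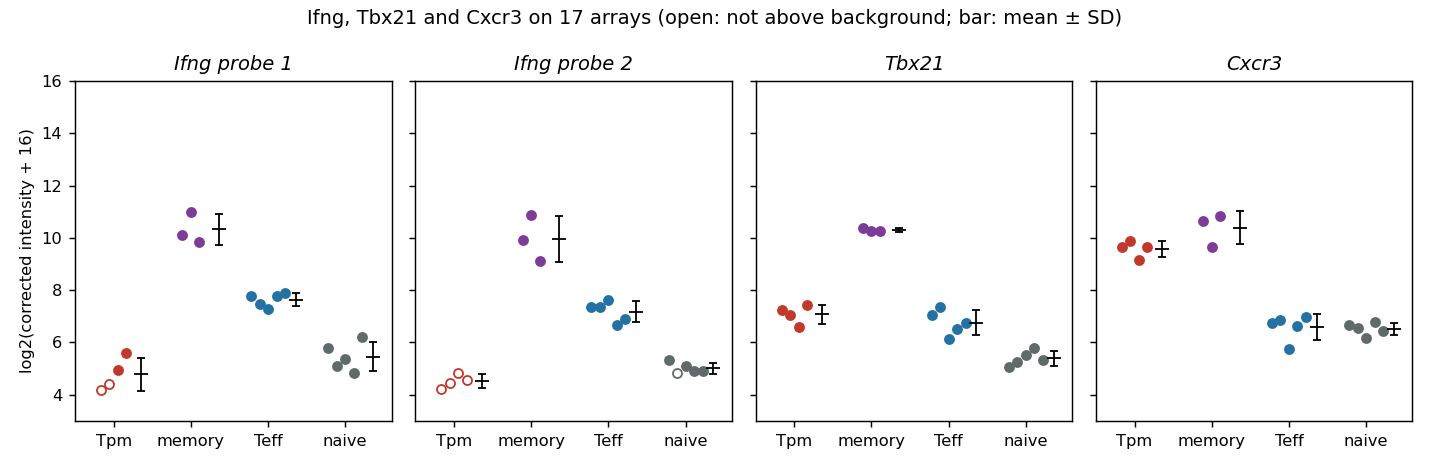
Levels of Ifng (2 probes), Tbx21 and Cxcr3 on each array, as log2 of the corrected intensity plus 16, by group. Points are arrays, open points are not above background, bars are the mean ± SD. Ifng is highest in memory cells, and Cxcr3 is high in Tpm and memory cells.

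Ccl5, known as a product of memory CD8 T cells, had the widest range of the 6 genes and was lowest in the effector cells. It stood at 7.99, 8.91, 9.74 and 8.71 on Tpm 4, 7, 14 and 15 and at 14.36, 14.70 and 14.45 on memory 3, 5 and 9. Teff 6, 8, 10, 16 and 17 had 7.13, 7.51, 7.02, 7.50 and 6.50, and naive 1, 2, 11, 12 and 13 had 11.08, 10.85, 10.74, 10.98 and 10.99. No group overlapped another, and the order was memory (14.50 ± 0.18, n = 3), naive (10.93 ± 0.13, n = 5), Tpm (8.84 ± 0.72, n = 4) and Teff (7.13 ± 0.42, n = 5; all SD). The memory and naive groups, from spleen, also held red cell markers: 13 erythroid probes summed to 14895 to 32973 in memory and 13606 to 84109 in naive cells, against 55.4 to 104 in Tpm and 50.4 to 68.7 in Teff. Teff 8, also labelled with spleen as its source, had 68.7. The part of red cells in the Ccl5 levels was not tested.

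All 6 differences of Ccl5 passed. Memory cells exceeded Teff by 7.37 (SE 0.30, adjusted p = 8.55e-12), a 166-fold difference, and naive cells by 3.57 (SE 0.30, adjusted p = 1.54e-07). Ccl5 was lower in Teff than in naive cells by -3.80 (SE 0.26, adjusted p = 3.12e-09). In Tpm it was lower than in naive cells by -2.09 (SE 0.27, adjusted p = 2.46e-05) and than in memory cells by -5.67 (SE 0.31, adjusted p = 1.27e-09), and higher than in Teff by 1.70 (SE 0.27, adjusted p = 0.000156). With median scaling the difference between Tpm and Teff was 1.5 and did not pass (adjusted p = 0.06).

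The genes whose levels ran most like Ccl5 were Rap1gap2, which encodes a GTPase-activating protein of Rap1 (r = 0.982), the lymphocyte GTPase gene Gimap5 (0.980) and Smad3, a signal transducer of TGF-beta (0.975). Rap1gap2 averaged 4.83 in Tpm, 9.66 in memory cells, 4.33 in Teff and 6.99 in naive cells. Smad3 averaged 8.85 in Tpm, 12.08 in memory cells, 7.89 in Teff and 10.09 in naive cells. Both had memory cells first and naive cells second, as Ccl5 did.

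Ccl4, an attractant of T cells and myeloid cells, was highest in memory cells and next in Tpm, and its 2 probes gave the same order for these groups. Probe 1 stood at 9.87, 10.00, 10.42 and 9.83 on Tpm 4, 7, 14 and 15 and at 11.70, 12.75 and 11.99 on memory 3, 5 and 9. On Teff 6, 8, 10, 16 and 17 it stood at 8.93, 8.83, 8.95, 8.76 and 7.71, and on naive 1, 2, 11, 12 and 13 at 9.49, 9.59, 8.86, 8.90 and 8.04. Probe 2, at a lower signal, averaged 6.67 ± 0.51 in Tpm, 8.95 ± 0.80 in memory cells, 5.46 ± 0.46 in Teff and 5.67 ± 0.42 in naive cells (SD, n = 4, 3, 5 and 5). Teff and naive arrays overlapped on both probes, and Tpm lay above them by a narrow gap.

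Memory cells exceeded naive cells by 3.17 on probe 1 (SE 0.35, adjusted p = 4.18e-06) and 3.29 on probe 2, and Teff by 3.51 (SE 0.35, adjusted p = 4.13e-07) and 3.50. In Tpm Ccl4 was lower than in memory cells by -2.12 and -2.28, and higher than in Teff by 1.39 (SE 0.32, adjusted p = 0.00352) and 1.22. Against naive cells Tpm was higher by 1.05 (SE 0.32, adjusted p = 0.025) and 1.01 (SE 0.33, adjusted p = 0.0356), just over the minimum. That call was lost on both probes without Tpm 14 (0.92 and 0.78, adjusted p = 0.0781 and 0.128), without naive 11 (1.02 and 0.88) and without naive 13 (0.82 and 0.91), and on probe 2 without Tpm 15 (0.98). It was lost on both probes too without background correction (0.94 and 0.49, with the same values in the authors' processed table), with an offset of 50 (1.00 and 0.68), with median scaling (adjusted p = 0.118 and 0.168) and with no filter (adjusted p = 0.0627 and 0.088), and on probe 2 with array weights (0.99) and with arrays 12 to 17 as a covariate (0.98). The call of Tpm against Teff was lost on both probes with median scaling (1.19 and 1.00, adjusted p = 0.0986 and 0.181). On probe 2 it was also lost without Tpm 14 (0.99), without background correction and in the authors' processed table (0.57 in each), and with an offset of 50 (0.80). Against memory cells, probe 2 lost its call without memory 3 and memory 5 (-1.39, adjusted p = 0.0739). Teff and naive cells differed by -0.34 (95% interval -0.98 to 0.30) on probe 1 and by -0.21 (-0.86 to 0.44) on probe 2.

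Ccl3, a ligand of Ccr1 whose annotated span overlaps that of Ccl4, was also highest in memory cells but was not raised in Tpm beyond the test. It stood at 5.29, 5.23, 6.73 and 5.71 on Tpm 4, 7, 14 and 15 and at 8.00, 8.67 and 7.65 on memory 3, 5 and 9. Teff 6, 8, 10, 16 and 17 had 6.16, 6.65, 6.14, 6.51 and 5.70, and naive 1, 2, 11, 12 and 13 had 5.43, 4.87, 4.62, 5.07 and 4.75, of which only naive 1 and 12 were above background. After normalisation memory arrays lay above all others, and Tpm overlapped both Teff and naive arrays. The uncorrected signal of memory 5 (105) lay within the naive range (89.7 to 121).

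Memory cells exceeded naive cells by 3.16 (SE 0.33, adjusted p = 2.02e-06) and Teff by 1.88 (SE 0.33, adjusted p = 0.000192), and Tpm was lower than memory cells by -2.36 (SE 0.34, adjusted p = 9.1e-05). Ccl3 was higher in Teff than in naive cells by 1.28 (SE 0.28, adjusted p = 0.00134). That call was lost without background correction and in the authors' processed table (0.50 in each) and with an offset of 50 (0.75). Tpm against naive cells (0.80, 95% interval 0.16 to 1.43) and against Teff (-0.49, -1.12 to 0.14) did not pass. With median scaling, which put the median of all probes at 0.76 for Tpm against memory cells, the calls of Tpm against memory cells were lost for Ccl3 (-0.77) and both Ccl4 probes (-0.21 and -0.51). That of memory cells against Teff was lost for Ccl3 (0.08, with the median of all probes at -0.89).

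Tpm 14 had the highest level of Ccl3, Ccl5 and both Ccl4 probes among Tpm arrays, and the highest macrophage and dendritic cell markers. Its Xcl1 was also the highest of these arrays (11.96, against 11.64 to 11.87). The summed intensity of 18 macrophage probes was 5483 on Tpm 14, against 145 to 281 on the other Tpm arrays, 154 to 460 in memory cells, 69.8 to 94.0 in Teff and 148 to 1200 in naive cells. That of 23 dendritic cell probes was 12203 on Tpm 14 and 526 to 836 on the other Tpm arrays, against 562 to 2432 in memory cells, 2135 to 3927 in Teff and 533 to 3892 in naive cells. Clec4f, Cd209a, Clec10a and Itgax were not above background on any Tpm array. The macrophage lysozyme gene Lyz2 was above background on all 4 Tpm arrays with its brightest probe and the macrophage gene Adgre1, which encodes F4/80, on 1. Without Tpm 14 the differences of Ccl5 from naive cells and from Teff were -2.39 and 1.41 and stayed called, and that of Ccl3 from naive cells was 0.46. The 5 probes of NK cell markers summed to 163 to 271 in Tpm, 1189 to 3484 in memory cells, 155 to 269 in Teff and 56.0 to 149 in naive cells. Ncr1 was not above background on any array. The part of these cells was not tested.

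Genes most like Ccl3 over the 17 arrays were the calcium-binding protein gene Ncald (r = 0.932), the microtubule-binding protein gene Mapre2 (0.924) and the scaffold protein gene Ahnak (0.923). For Ccl4 probe 1 they were Fibp (0.939), Cldnd2 (0.937) and the sialic acid synthesis gene Gne (0.933), and for Xcl1 Unc119b (0.953), the survival gene Bcl2a1d (0.944) and Fbxo6 (0.944). Ncald averaged 5.21 in Tpm, 8.78 in memory cells, 5.36 in Teff and 4.36 in naive cells. Bcl2a1d averaged 11.20 in Tpm, 10.22 in memory cells, 10.58 in Teff and 8.87 in naive cells, with Tpm first and naive cells last, as for Xcl1.

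Tbx21, which encodes T-bet, a transcription factor of cytotoxic T cells, was highest in memory cells. It averaged 7.08 ± 0.37 in Tpm, 10.30 ± 0.06 in memory cells, 6.76 ± 0.47 in Teff and 5.39 ± 0.28 in naive cells (SD, n = 4, 3, 5 and 5). Tpm exceeded naive cells by 1.70, memory cells exceeded naive cells by 4.92, and Teff exceeded naive cells by 1.37. Tpm and Teff differed by 0.32 (adjusted p = 0.37).

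**Figure D4:**
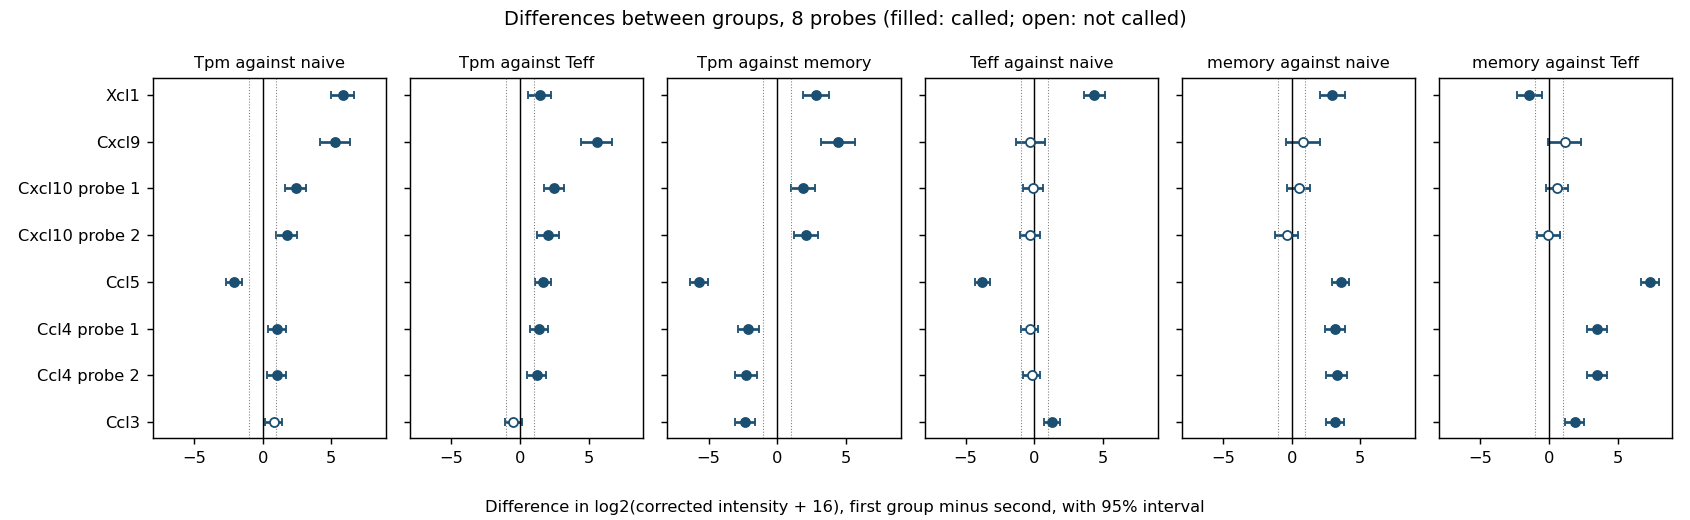
Difference of each of the 8 probes in each of the 6 comparisons, first group minus second, in log2 of the corrected intensity plus 16, with its 95% interval from the limma fit. Filled points were called and open points were not, and dotted lines mark -1 and 1. The probes of Ccl5, Ccl4 and Ccl3 lie left of 0 for Tpm against memory cells and those of Xcl1, Cxcl9 and Cxcl10 right of it.

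Of 29 further ligand genes on the array, 13 had a tested probe, and 13 genes were not above background on any Tpm array, among them Cxcl11, the remaining Cxcr3 ligand. Of their 46 probes, 12 to 18 were above background on each Tpm array, 5 on each memory array, 4 to 6 on Teff arrays and 3 to 7 on naive arrays, so several of the 17 tested probes were tested through the Tpm arrays, and their number of calls is given as a description. Higher in Tpm than in naive cells were 6 probes, those of the monocyte attractants Ccl2, at least 3.59-fold, and Ccl7, at least 4.92-fold and 7.95-fold by its 2 probes, the neutrophil attractant Cxcl1, at least 5.69-fold, Cxcl12, a ligand of Cxcr4, at least 5.81-fold, and Cxcl16, a ligand of Cxcr6, at least 5.15-fold. None of these 6 probes was above background on any naive array. The second tested Cxcl16 probe did not pass (0.72, adjusted p = 0.161), and the other 4 Cxcl12 probes were not tested. In Teff 0 of the 17 probes were called against naive cells, where 23.0% of all tested probes were. Ccl2, Ccl7, Ccl9, Cxcl1 and Cxcl16 were among the genes not above background on any Teff or naive array. Their probes had little room for a call there, so the share over all probes is no measure of this count. In memory cells Ccl9, which lies between Ccl4 and Ccl5 in the genome, was at least 15.1-fold higher than in naive cells. It was tested through the memory and Tpm arrays, so this too is a description. Ccl25 was lower in memory cells by -1.44 on 1 of 2 tested probes.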

How the data were processed

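RNA of 17 samples was hybridised to Illumina mouse bead arrays, 1 array per sample. The deposited table of non-normalized intensities was used, and its 34885 probes with 1 gene symbol were named from GEO's platform annotation. The authors' processed table of intensities, which has the same values after quantile normalisation, as a comparison of the deposited tables showed, served as an alternative. What else was done before the files were deposited is not given in the sources used here.

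For each array the background was estimated from its own signals (mode, and SD of the signals below it) and removed by normexp. An offset of 16 was added, arrays were quantile-normalised and log2 was taken. Probes above background on at least 3 arrays (19103 of 45281) were fitted with limma 3.58.1 (R 4.3.3), 1 mean per group over all 17 arrays, in 6 comparisons, with Benjamini-Hochberg adjustment over all tested probes in each. No detection p-values were used here. A probe not above background on any array of a group has only a bound there, given as "at least". The number of arrays limits the precision.

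Members and gene lists were chosen with earlier results of these data known. Genes named are all members, the 3 genes most correlated with the brightest probe of each member, up to 4 called genes per list and comparison, and Ifng, Irf1, Tbx21, Xcr1 and Cxcr3. Other genes that the rule names are not reported here. Genes named as not above background, and Cd3e, Cd8b1, Cd8a, Lyz2 and Adgre1, were added after their values were seen. Alternatives changed the background correction, offset, normalisation, filter, call rule, probes per gene, array weights, the arrays in the fit, and array number as a covariate.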

Additional observations from a re-analysis of the deposited data

Results flagged for a closer look

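Of 24 groups of 4 or 5 arrays examined over the 8 probes, 2 held an array far from the rest, where chance gives about 1 in 20. On Teff 17, Ccl4 probe 1 stood at 7.707, and the other Teff arrays lay from 8.76 to 8.95. On Teff 16, Cxcl10 probe 1 stood at 4.654, which is not above background, and the other Teff arrays lay from 4.16 to 4.30.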

How the results depend on the processing

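The labels name no pairing between groups, so no paired analysis was made. Over all alternatives, 900 values of single probes were recomputed: 835 kept their direction and their side of the threshold, 49 lost a call, 3 gained one and 13 changed sign, and none of those 13 was called. For Tpm against naive cells 7 member probes were called, against 4 without background correction and 4 with the authors' processed table. With median scaling 3 were called for Tpm against Teff and 5 for Tpm against memory cells, against 7 and 8. Leaving out 1 array in turn gave 5 to 7 called probes for Tpm against naive cells, 6 to 7 for Tpm against Teff and 5 to 6 for memory cells against Teff, and did not change the count in the other 3 comparisons. Median scaling changed the sign of Ccl4 for Teff against naive cells (0.016 and 0.087 on probes 1 and 2) and of Cxcl10 probe 2 for memory cells against Teff (0.022). Without memory 3 and memory 5, Cxcl9 stood at -0.55 and Cxcl10 probe 1 at -0.14 for memory against naive cells, and against Teff Cxcl9 stood at -0.24 and the Cxcl10 probes at -0.056 and 0.061. Leaving out 1 array moved Cxcl9 from -0.38 to 1.53 and Cxcl10 probe 1 from -0.093 to 0.82 for memory against naive cells. Against Teff the ranges were -0.066 to 1.85 for Cxcl9, -0.0062 to 0.91 for Cxcl10 probe 1 and -0.11 to 0.0055 for probe 2. The cause was not tested.

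Over all probes, calls without background correction numbered 890, 1156, 1037, 2158, 927 and 2380, against 2220, 2557, 2552, 4396, 2335 and 4675, for Tpm against naive cells, Teff and memory cells, Teff against naive cells, and memory cells against naive cells and Teff. In the same order median scaling called 824 higher and 493 lower, 552 and 1356, 6295 and 96, 2764 and 1162, 127 and 5590, and 187 and 7990, against 1163 and 1057, 1222 and 1335, 1519 and 1033, 2209 and 2187, 925 and 1410, and 2010 and 2665. With an offset of 50 there were 1319, 1601, 1588 and 1353 calls for the 3 Tpm comparisons and memory against naive cells, and by adjusted p alone 4113, 4729, 3912, 7716, 3753 and 7136. With 1 probe a gene there were 1400, 1611, 1564, 2538, 1333 and 2740, with fewer probes tested. A fit of Tpm and memory arrays alone gave 1294. Signals near background limit Cxcl10, Ccl3 in naive cells, and memory 5, on which the fewest probes were above background.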

Other observations

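Of 19 tested probes of Ifng, its receptor and its signalling genes, 1 was higher in Tpm than in naive cells and 7 were lower (6.09% and 5.53% of all tested probes), with a median difference of -0.50. Set against Teff 3 were higher and 2 lower in Tpm (6.40% and 6.99% of all). Set against memory cells 2 were higher and 5 lower in Tpm (7.95% and 5.41% of all). Of 14 tested probes of T-bet and other regulators of Xcl1 and the Ccl genes, 1 rose and 1 fell in Tpm relative to naive cells. This is near the share over all tested probes (6.09% and 5.53%). In memory cells 4 rose and 1 fell relative to naive cells (4.84% and 7.38% of all).

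The remaining marker lists had the following summed intensities. B cell markers lay from 151 to 236 in Tpm, 178 to 674 in memory cells, 99.4 to 147 in Teff and 137 to 263 in naive cells. Neutrophil markers were highest on memory 5 (5749). Hepatocyte markers had no tested probe. T-cell identity genes summed to 73713 to 79242 in Tpm, 79251 to 84921 in memory cells, 48819 to 61246 in Teff and 64707 to 73377 in naive cells.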
